A study of Homo sapiens with 6 samples.

Results

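Nuclear receptors are transcription factors that bind DNA through a conserved zinc finger domain and, in most cases, switch genes on or off when a small lipophilic ligand occupies their ligand pocket. The members were 41 nuclear receptor genes listed by symbol, and all 41 were found among the 20388 gene symbols of the deposited table. Not every gene of the family is a member. The cells were MHCC-97H, an established line of human hepatocellular carcinoma, labelled as wild type and grown in DMEM with fetal bovine serum. The compared groups were 3 libraries of cells given the solvent DMSO and 3 libraries of cells given GK921, an inhibitor of the protein cross-linking enzyme transglutaminase 2 (TGM2), at 2 µM. Exposure lasted 24 h in both groups. Nothing says whether each library had its own culture, so p-values reflect only how far these libraries differ, which may be technical. All values are FPKM (fragment counts scaled by transcript length and library total), so levels of different genes can be set side by side.

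In liver the family is known for sensing nutrients, bile acids, drugs and hormones. Retinoic acid, thyroid hormone, vitamin D and lipid receptors bind DNA as heterodimers with the retinoid X receptors (RXR), on repeats of a short core element, AGGTCA or a close variant, whose spacing helps to select the partner. Steroid receptors are held by chaperones until hormone binds, then act as homodimers, whereas several orphan receptors act without a known hormone.

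The liver label was checked against 14 liver and hepatocellular markers, and 10 of them stayed under 1 FPKM in every library. Albumin (ALB) lay between 0 and 0.14 FPKM, and APOA2 and GPC3 were listed at 0 in all 6 libraries. Alpha-fetoprotein (AFP) lay between 0.60 and 0.98 FPKM in DMSO and between 0.33 and 0.40 after GK921. The epithelial keratin KRT8 was abundant and fell 1.48-fold, from 1625 to 1638 FPKM in DMSO to 1083 to 1113 after GK921. KRT18, at 733 to 747.3 FPKM against 770.9 to 813.8, rose 1.06-fold, a rise not kept when libraries were rescaled by median ratios (log2 change -0.089). The plasma protein gene APOH fell 2.25-fold, from 35.7 to 40.0 FPKM to 15.9 to 18.5. The summed level of the 14 markers, mostly KRT8 and KRT18, was 2411 to 2420 FPKM in DMSO and 1876 to 1937 after GK921. Of 12 markers of other cell types, 7 stayed under 1 FPKM in every library, and the endothelial gene CDH5 was listed at 0. The summed level of that second list was 381 to 396 FPKM in DMSO and 274 to 284 after GK921, mostly KRT19 and CD68, and its part in the results was not tested. Its genes did not move as one, since the biliary keratin KRT19 fell 1.58-fold and the fibroblast gene DCN 8.75-fold, the biliary keratin KRT7 rose 3.38-fold, and the macrophage gene CD68 was not called. Absolute depth is unknown. Low FPKM values step in single fragments, which put relative depth, with the deepest library at 1, at 0.869 to 1 in DMSO and 0.768 to 0.862 after GK921. Between 33 and 36 members were above 0 in a library.

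The core element was looked for in the 250 bases before each start site that RefSeq lists for the members (GRCh38.p14), because most of these receptors bind DNA through it. The table held 86 start sites for 36 of the 41 members. AGGTCA, on either strand, was present in 14 of the 86 windows, belonging to 10 members, against 12.0% of 34961 windows of all genes. A repeat named DR5, a pair of such elements in the same orientation with 5 bases between them and with the usual variants allowed, was present in 1 member window and in 0.0744% of all windows. That window belongs to RARB, where this repeat is the textbook binding site of the retinoic acid receptors. DR1, with 1 base between the elements, was in no member window and in 0.0973% of all windows. TGACGTCA, the binding site of cAMP-responsive factors and a different motif, was in 1 member window, of NR6A1, and in 1.65% of all windows. The stretches below are those of the member that fell most on the log2 scale (RARB), the most abundant member (PPARG), the largest rise among members above 5 FPKM (NR0B1) and the carrier of TGACGTCA (NR6A1). Capitals mark the matched motif, and each stretch is written 5′ to 3′ on the strand of the gene.
RARB, chr3:25428013-25428262, plus strand, DR5 from 53 to 37 bases before the start:
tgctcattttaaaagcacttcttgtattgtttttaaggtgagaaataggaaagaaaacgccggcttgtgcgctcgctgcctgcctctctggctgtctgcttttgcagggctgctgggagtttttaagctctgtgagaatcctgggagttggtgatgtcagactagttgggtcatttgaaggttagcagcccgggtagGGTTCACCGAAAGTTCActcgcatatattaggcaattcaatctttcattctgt
PPARG, chr3:12287118-12287367, plus strand, AGGTCA at 2 places:
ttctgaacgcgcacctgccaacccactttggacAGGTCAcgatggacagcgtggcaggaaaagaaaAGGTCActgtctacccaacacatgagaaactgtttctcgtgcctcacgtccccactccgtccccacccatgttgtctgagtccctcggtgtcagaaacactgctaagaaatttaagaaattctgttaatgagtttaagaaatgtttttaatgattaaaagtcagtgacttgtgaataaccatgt
NR0B1, chrX:30309516-30309545, minus strand, AGGTCA:
ttcgaaccaccgAGGTCAtgggcgaacaca
NR6A1, chr9:124771317-124771346, minus strand, TGACGTCA:
gcagcggcgtgTGACGTCAggggagggagc
The NR0B1 stretch lies before the RefSeq start but inside the gene as GENCODE 29 draws it, in an annotated UTR.
A match is a description of these letters and not a measured binding site, and the table does not say which start site the cells used. RARB and PPARG have 4 and 6 listed start sites.

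Of the 41 members, 27 averaged 1 FPKM or more across all 6 libraries and were tested, and 14 were below that limit. Levels spanned 3 classes among the tested genes, with 8 members at 20 FPKM or more, 11 between 5 and 20, and 8 between 1 and 5. In DMSO the order was led by PPARG, the adipogenic lipid sensor, at 85.8 ± 1.63 FPKM (SD, n = 3 libraries a group, as for every mean below), above 92.0% of all genes in the table. NR1H2, the liver X receptor beta, followed at 51.2 ± 1.46 and ESRRA, the estrogen-related receptor alpha, at 46.4 ± 1.74, with no overlap between the libraries of these 3 genes. NR2C1, NR0B1 and RXRA came next at 35.0 ± 3.88, 33.7 ± 0.327 and 32.8 ± 1.42, and their values overlapped. NR3C1, NR2C2 and NR2F6 also overlapped, at 18.1 ± 0.847, 17.1 ± 0.536 and 17.0 ± 0.846. After GK921 the order was PPARG, NR1H2, NR0B1, NR2C1, RXRA and ESRRA. NR0B1 had moved from rank 5 to rank 3 and ESRRA from rank 3 to rank 6. After GK921 the values of NR1H2 and NR0B1 overlapped, as did those of NR2C1, RXRA and ESRRA, so the order within each of those sets is not firm. The summed level of all members was 459 ± 8.48 FPKM in DMSO and 537 ± 15.4 after GK921. In a bulk culture, fewer cells with a transcript and less of it per cell cannot be told apart.

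**Figure D1:**
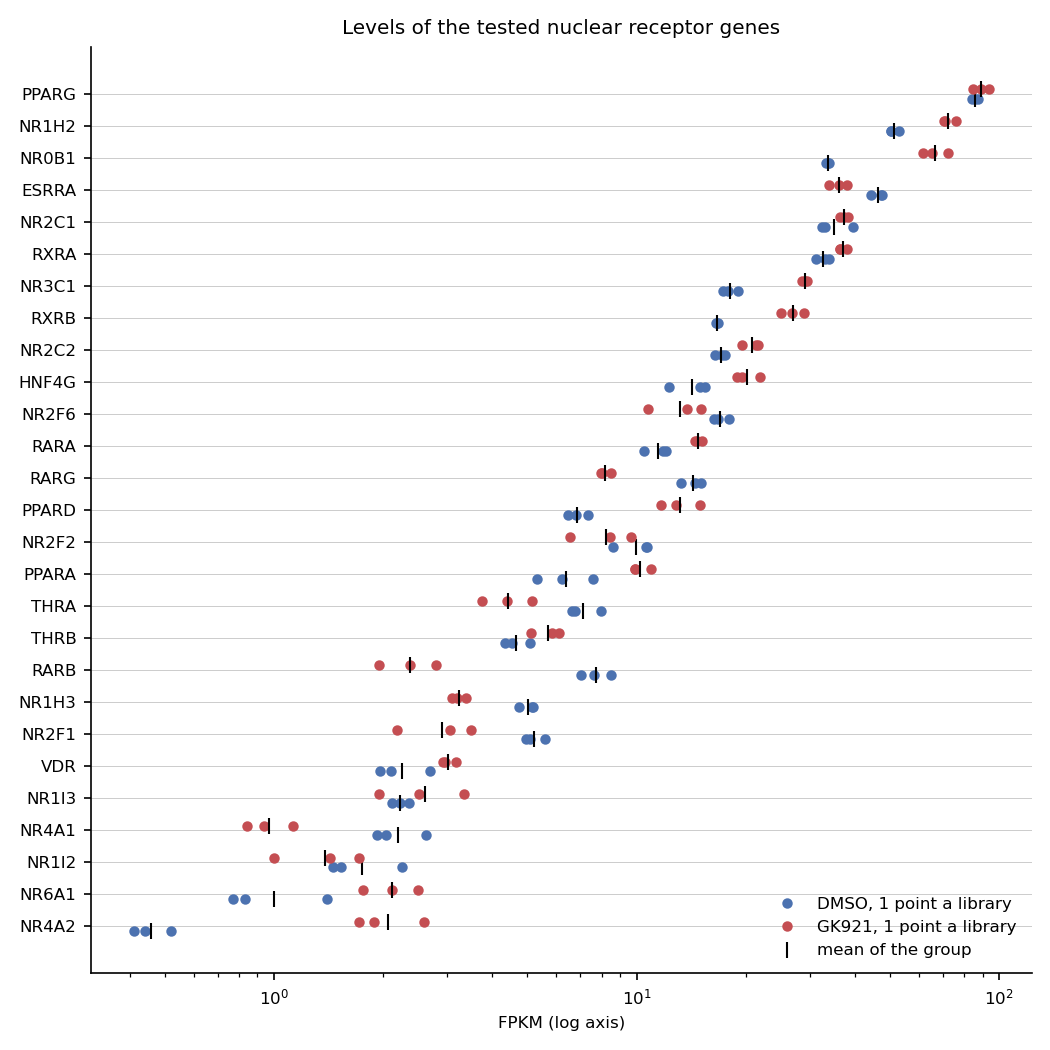
FPKM (log axis) of the 27 tested members, 1 point a library, blue for DMSO and red for GK921, with a black tick at each group's mean and genes ordered by their mean over the 6 libraries. PPARG leads in both groups with overlapping points, whereas NR0B1, RARB and NR4A2 have clearly separated groups.

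Of the 27 tested members, 13 were higher and 8 lower after GK921 at a limma adjusted p under 0.05, called higher or lower below, and 6 were not called. That is 77.8% of the tested members, beside 75.9% of all 11573 tested genes (46.8% higher and 29.2% lower), so a call was about as frequent among the receptors as in the transcriptome. DMSO and GK921 values were fully separate for 22 tested members, beside 78% of all tested genes. The median log2 change was 0.171 for the members and 0.158 for all tested genes. A 2-fold change, measured on log2(FPKM + 1), was reached by 2 of the 27 tested members, RARB and NR4A2. Among all 11573 tested genes, 1869 reached it. When libraries were rescaled, the split of member calls moved. It was 10 higher and 10 lower with median ratios, 11 and 9 with upper quartiles, and 9 and 10 with quantile normalization. In the same order, all 11573 tested genes gave 4221 higher and 4374 lower, 4627 and 3985, and 4396 and 4069. Of the 21 called members, 17 were called in the same direction under all 3 rescalings, and the exceptions were VDR, RXRA, NR2C2 and NR6A1. Among tested members, 12 share exonic bases with a gene on the opposite strand in GENCODE 29, up to 661 of 3305 exonic bases for NR1I3. The others are RARA (17.9%), NR2C2 (11.4%), NR4A1 (10.3%), ESRRA (9.4%), RXRB (6.2%), NR1H3 (4.2%), THRA (3.8%), NR2F1 (3.7%), RARB (0.8%), THRB (0.4%) and VDR (0.3%). The strand setting of the counting is unknown, so those levels are less certain. Tested members NR1I2, NR2F2 and NR2F6 each share exonic bases with 1 gene on the same strand, which no strand setting separates, so their levels are less certain too.

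**Figure D2:**
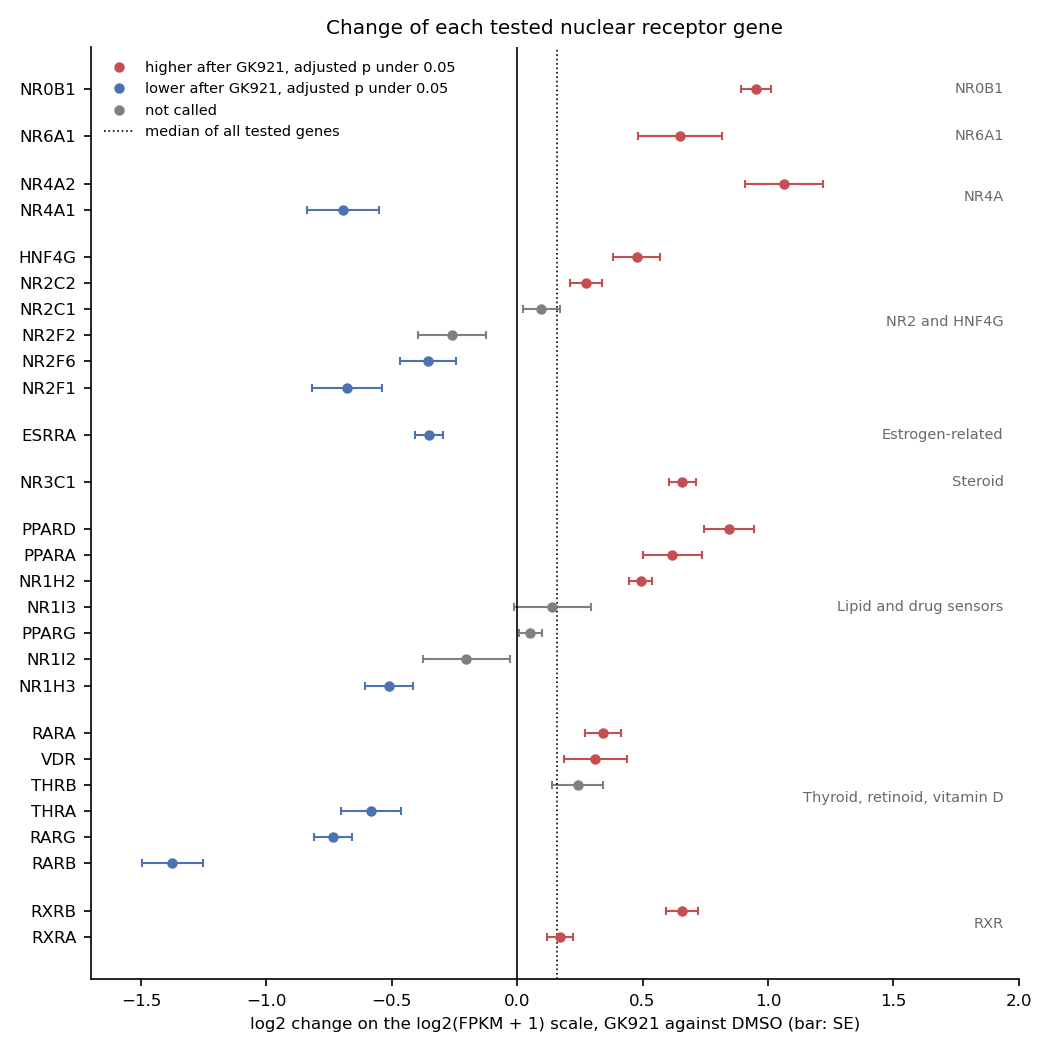
Log2 change of each tested member on the log2(FPKM + 1) scale (GK921 against DMSO), grouped by role, with bars of 1 SE. Red points were called higher, blue points lower and grey points not called. The solid line is no change and the dotted line the median of all tested genes at 0.158, close to the value of RXRA.

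The retinoic acid receptors moved in opposite directions. RARB (chromosome 3, 25174332 to 25597932 in GRCh38), itself a classical retinoic acid target through the DR5 repeat shown above, stood at 7.04, 8.49 and 7.64 FPKM in DMSO and at 2.80, 1.95 and 2.37 after GK921. Every GK921 library lay far below every DMSO library, a 3.25-fold fall with a log2 change of -1.38 ± 0.12 (SE, limma adjusted p = 8.33e-06). RARG, the gamma receptor, known from skin, read 13.3, 15.1 and 14.5 FPKM against 8.50, 7.99 and 8.03. It fell 1.75-fold, with no overlap (log2 change -0.73 ± 0.07, limma adjusted p = 1.99e-05). RARA, the alpha receptor, went the other way, from 10.5, 12.0 and 11.8 FPKM to 15.1, 14.5 and 14.6. Its rise was 1.29-fold with separate groups (log2 change 0.34 ± 0.07, limma adjusted p = 0.00217), and 17.9% of its exonic bases are shared with genes on the opposite strand. The log2 change of RARA was 0.18 with median ratios and with quantile normalization (limma adjusted p = 0.0498 and 0.0492), and it did not pass the test against a 1.2-fold change (limma treat adjusted p = 0.256). As a share of the summed RAR level within each library, a ratio that rescaling by a constant does not touch, RARA went from 34.2% ± 0.548 to 58.3% ± 1.05. RARB went from 23.1% ± 0.703 to 9.35% ± 1.31 of that sum, and RARG from 42.7% ± 0.366 to 32.3% ± 0.337. The most abundant of the 3 genes was RARG in each DMSO library and RARA in each GK921 library. The summed RAR level was 33.4 ± 2.47 FPKM in DMSO and 25.3 ± 1.02 after GK921.

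Of the RXR partners, RXRB rose, while the call of RXRA depended on the scaling. RXRB (chromosome 6, 33193588 to 33200688) read 16.8, 16.7 and 16.6 FPKM in DMSO and 26.79, 25.04 and 29.02 after GK921. It rose 1.61-fold with separate groups (log2 change 0.66 ± 0.06, limma adjusted p = 1.53e-05). RXRA, the main RXR of liver, read 33.2, 33.9 and 31.2 FPKM against 36.5, 38.0 and 36.4, a 1.13-fold difference. Its call (log2 change 0.17 ± 0.05, limma adjusted p = 0.0126) was close to the median change of all genes. That call was lost under each rescaling, with median ratios giving -0.001 (limma adjusted p = 0.992). RXRG, whose known sites include muscle and brain, was at 0 in 5 libraries and at 0.08 FPKM in the other. RXRB made up 33.8% ± 0.887 of the RXRA and RXRB sum in DMSO and 42.1% ± 2.32 after GK921.

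Of the thyroid hormone receptors, THRA read 6.62, 7.95 and 6.77 FPKM in DMSO and 5.15, 4.39 and 3.75 after GK921. It fell 1.61-fold (log2 change -0.58 ± 0.12, limma adjusted p = 0.00179) with no overlap, and 3.8% of its exonic bases are shared with a coding gene on the opposite strand. THRB, the isoform gene that predominates in normal liver, read 5.08, 4.34 and 4.53 FPKM against 6.12, 5.11 and 5.83. The groups were separate by a narrow margin, and the limma test did not call it (log2 change 0.24, 95% interval 0.01 to 0.47, limma adjusted p = 0.0556). Without the first DMSO or the second GK921 library it was called (limma adjusted p = 0.0464 and 0.033). The log2 change of THRB shrank to 0.095, 0.148 and 0.006 with median ratios, upper quartiles and quantile normalization. THRA was thus above THRB in each DMSO library and below it in each GK921 library. VDR, the vitamin D receptor, read 2.10, 1.96 and 2.70 FPKM against 2.93, 3.17 and 2.96. Its call as higher was marginal (log2 change 0.31 ± 0.12, limma adjusted p = 0.0463) and was lost in 12 of 15 alternatives. Those include leaving out the first (limma adjusted p = 0.119) or second DMSO library (0.143), or GK921 library 1 (0.0748), 2 (0.11) or 3 (0.0822).

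**Figure D3:**
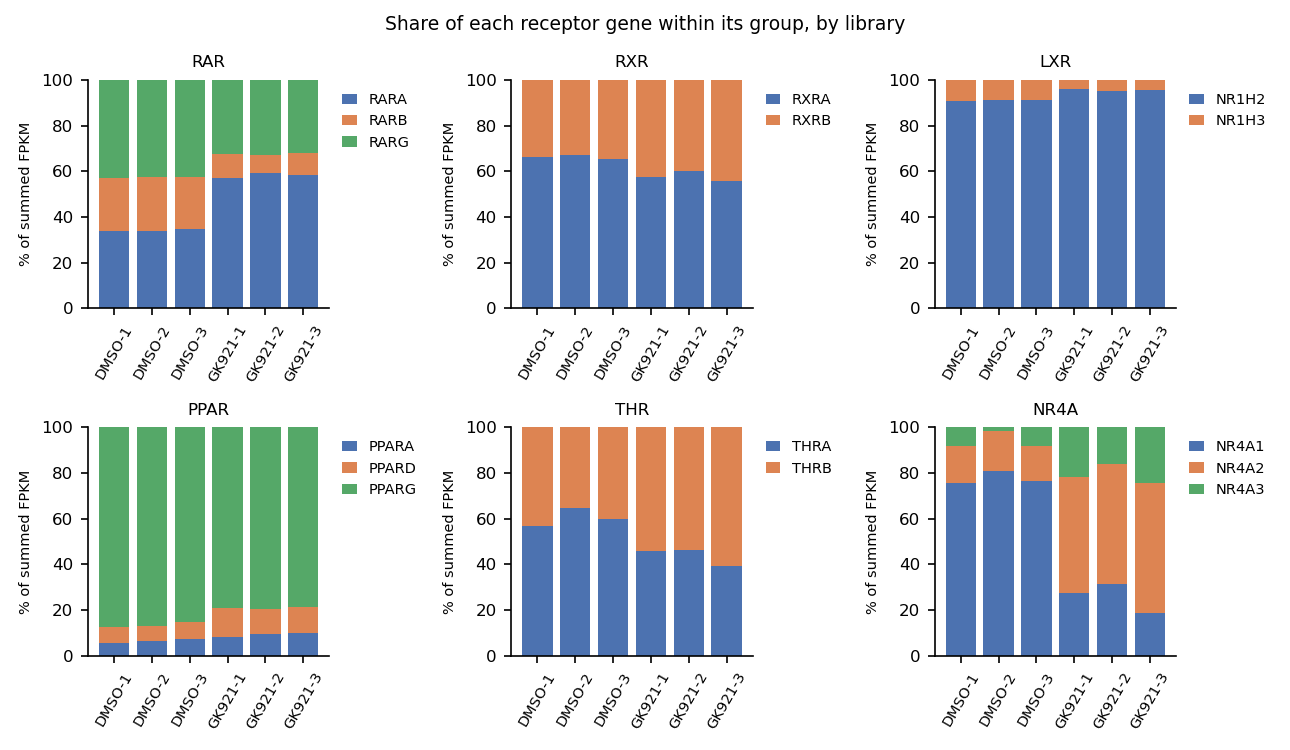
Percent of the summed FPKM of a receptor group that each gene contributes, in 1 bar a library, for the RAR, RXR, LXR (liver X receptor), PPAR, THR (thyroid hormone receptor) and NR4A genes. RARA takes 57.2% to 59.3% of the RAR sum after GK921 against 33.8% to 34.8% in DMSO, and NR4A1 18.5% to 31.3% of the NR4A sum against 75.6% to 81.0%.

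Among the peroxisome proliferator-activated receptors, fatty acid sensors, PPARG (chromosome 3, 12287368 to 12434356) was the most abundant member in all 6 libraries. It read 84.1, 85.9 and 87.4 FPKM in DMSO and 93.9, 84.4 and 89.0 after GK921. The groups overlapped, and the log2 change of 0.05 had a 95% interval of -0.05 to 0.16 (limma adjusted p = 0.309). With median ratios its log2 change was -0.12, a call as lower (limma adjusted p = 0.0364). PPARD, the broadly expressed delta receptor, rose 1.92-fold, from 6.81, 6.45 and 7.33 FPKM to 14.98, 11.66 and 12.83 (log2 change 0.84 ± 0.10, limma adjusted p = 5.35e-05). PPARA, which drives fatty acid oxidation in hepatocytes, read 5.30, 6.23 and 7.58 FPKM against 9.87, 9.88 and 11.0. It rose 1.61-fold (log2 change 0.62 ± 0.12, limma adjusted p = 0.0011). In both genes each GK921 library was above each DMSO library. PPARG still made up 79.2% ± 0.406 of the summed PPAR level after GK921, against 86.7% ± 1.08 in DMSO.

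The liver X receptors, which bind oxysterols and promote cholesterol export, moved apart. NR1H2 (chromosome 19, 50329653 to 50382982) read 50.3, 52.9 and 50.4 FPKM in DMSO and 75.9, 70.3 and 71.1 after GK921. It rose 1.42-fold without overlap (log2 change 0.49 ± 0.05, limma adjusted p = 9.76e-06). NR1H3, the alpha receptor of liver and macrophages, fell 1.56-fold from 5.13, 5.19 and 4.74 FPKM to 3.10, 3.38 and 3.20 (log2 change -0.51 ± 0.09, limma adjusted p = 0.000998). The alpha gene's part in the LXR sum went from 8.93% ± 0.333 to 4.27% ± 0.331. Receptors of bile acids and drugs were scarce. NR1I2, the pregnane X receptor (PXR), ranged from 1.45 to 2.25 FPKM in DMSO and from 1.00 to 1.72 after GK921 and was not called (log2 change -0.20, 95% interval -0.60 to 0.19, limma adjusted p = 0.311). NR1I2 was called lower with quantile normalization (-0.44, limma adjusted p = 0.0481), and without the first DMSO or the third GK921 library its log2 change was -0.074 or -0.082. NR1I3, the constitutive androstane receptor (CAR), ranged from 2.11 to 2.35 and from 1.95 to 3.35 FPKM and was not called either (log2 change 0.14, 95% interval -0.21 to 0.49, limma adjusted p = 0.43). NR1H4, the bile acid receptor FXR, was under the limit for testing, at 0.96, 0.46 and 0.28 FPKM in DMSO and 0.06, 0.12 and 0.17 after GK921. Its GK921 values all lay below its DMSO values, at levels where a few fragments set the value.

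NR3C1, the glucocorticoid receptor, was the only steroid receptor among the members that reached the limit for testing. It read 17.8, 19.0 and 17.3 FPKM in DMSO and 28.6, 29.1 and 29.5 after GK921 (chromosome 5, 143277931 to 143435512). The groups were far apart, a 1.61-fold rise with a log2 change of 0.66 ± 0.06 (limma adjusted p = 5.46e-06). NR3C2, the mineralocorticoid receptor, lay between 0.30 and 0.62 FPKM in all libraries, with overlapping groups. The estrogen receptors were close to 0, ESR1 at up to 0.17 and ESR2 at up to 0.30 FPKM. ESRRA, a ligand-independent regulator of mitochondrial genes, fell 1.28-fold, from 47.3, 47.4 and 44.3 FPKM to 38.0, 36.3 and 34.0 (log2 change -0.35 ± 0.05, limma adjusted p = 0.000318). Its groups did not overlap, and the difference did not pass a test against a 1.2-fold change (limma treat adjusted p = 0.127). Its relatives ESRRB and ESRRG were listed at 0 in 6 and 5 libraries.

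The NR4A genes, orphan receptors known as immediate early genes, changed in composition at low levels. NR4A1 (chromosome 12, 52022832 to 52059507), also called NUR77, read 1.92, 2.04 and 2.62 FPKM in DMSO and 0.94, 1.13 and 0.84 after GK921. It fell 2.26-fold without overlap (log2 change -0.69 ± 0.14, limma adjusted p = 0.00188). NR4A2, or NURR1, rose 4.53-fold, from 0.41, 0.44 and 0.52 FPKM to 1.72, 1.89 and 2.59 (log2 change 1.06 ± 0.16, limma adjusted p = 0.000218). NR4A3 was under the limit, at 0.21, 0.04 and 0.28 FPKM against 0.75, 0.59 and 1.10, and the groups did not overlap. NR4A1 went from 77.7% ± 2.85 to 25.8% ± 6.56 of the summed NR4A level, and NR4A2 from 16.3% ± 1.13 to 53.3% ± 3.47. The sum itself was 2.83 ± 0.514 and 3.85 ± 0.597 FPKM. NR4A2 passed the limit only through its GK921 libraries and NR4A1 only through its DMSO libraries, so their presence among the tested genes already favours a difference.

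NR0B1, also called DAX1, lacks the usual DNA-binding domain and represses other receptors, and it is best known from the adrenal gland and gonads. It stood at 34.0, 33.8 and 33.4 FPKM in DMSO and at 72.1, 65.3 and 61.6 after GK921 (chromosome X, 30304206 to 30309598). The DMSO libraries were tight and every GK921 library was far above them, a 1.97-fold rise (log2 change 0.95 ± 0.06, limma adjusted p = 7.35e-07). This was the smallest p among the members. Its relative NR0B2, or SHP, the bile acid-induced repressor of liver, was listed at 0 in 5 libraries and at 0.14 FPKM in the other. NR5A1, the steroidogenic factor known to act with NR0B1 in the adrenal gland, was at most 0.30 FPKM. NR5A2, its liver relative LRH-1, lay between 0.14 and 0.42 FPKM with overlapping groups.

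The remaining orphan receptors moved in both directions. HNF4G, a hepatocyte nuclear factor of gut and liver epithelium, rose 1.42-fold, from 14.97, 12.27 and 15.46 FPKM to 18.9, 21.9 and 19.6 (log2 change 0.48 ± 0.10, limma adjusted p = 0.00156). HNF4G did not pass the test against a 1.2-fold change (limma treat adjusted p = 0.054). NR2F1, or COUP-TFI, often a repressor, fell 1.79-fold from 5.09, 5.60 and 4.95 FPKM to 2.18, 3.50 and 3.06 (log2 change -0.68 ± 0.14, limma adjusted p = 0.00179). Neither gene's groups overlapped. NR2F6, the related EAR2, was lower in all 3 GK921 libraries, at 10.74 to 15.02 FPKM against 16.3 to 18.0 (log2 change -0.36 ± 0.11, limma adjusted p = 0.0162). That call was lost when DMSO library 3 was left out (limma adjusted p = 0.0531) and in the test against a 1.2-fold change (limma treat adjusted p = 0.346). Without GK921 library 2, the lowest, the log2 change of NR2F6 was -0.23 (limma adjusted p = 0.0287). NR2F2, or COUP-TFII, overlapped at 8.61 to 10.7 FPKM in DMSO and 6.56 to 9.64 after GK921 and was not called (log2 change -0.26, 95% interval -0.57 to 0.05, limma adjusted p = 0.111). Under each rescaling NR2F2 was called lower, at log2 changes of -0.42, -0.36 and -0.45, and without the second GK921 library too (limma adjusted p = 0.0368). Without the third GK921 library its log2 change was -0.12 (limma adjusted p = 0.365). The testicular receptors, which bind AGGTCA repeats as orphan dimers, were abundant. NR2C2 was called higher, at 16.5 to 17.5 FPKM against 19.5 to 21.7 (log2 change 0.27 ± 0.06, limma adjusted p = 0.00324), a call lost with median ratios (0.149) and quantile normalization (0.0888). Nor did NR2C2 pass the test against a 1.2-fold change (limma treat adjusted p = 0.639). NR2C1 overlapped at 32.4 to 39.4 and 36.4 to 38.3 FPKM and was not called (log2 change 0.10, 95% interval -0.07 to 0.27, limma adjusted p = 0.259). Its highest DMSO value belonged to the second library, without which it was called higher (limma adjusted p = 0.0149). NR6A1, the germ cell nuclear factor of early development, read 1.40, 0.83 and 0.77 FPKM in DMSO and 2.49, 2.11 and 1.76 after GK921. It was called higher (2.12-fold, log2 change 0.65 ± 0.17, limma adjusted p = 0.00648), but not with quantile normalization (0.0644).

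Of the 14 members under the limit, RORB and ESRRB were listed at 0 in every library, and the highest value of any was 1.42 FPKM. RORA, a receptor tied to the circadian clock, came closest, with a mean of 0.958 FPKM over the 6 libraries. It read 0.78, 0.56 and 0.85 FPKM in DMSO and 1.42, 1.28 and 0.86 after GK921. The photoreceptor gene NR2E3 was listed at 0 in DMSO and at 0.17, 0.17 and 0.38 FPKM after GK921. A fit without the limit covered 39 members and called 23 of them, beside 57.6% of 15942 genes. In it NR4A3 and NR2E3 were higher (limma adjusted p = 0.00419 and 0.0107) and NR1H4 lower (0.0328), while RORA was not called (0.0548). At such levels the step made by a single fragment is a large part of a value, and the GK921 libraries were on the whole shallower.

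**Figure D4:**
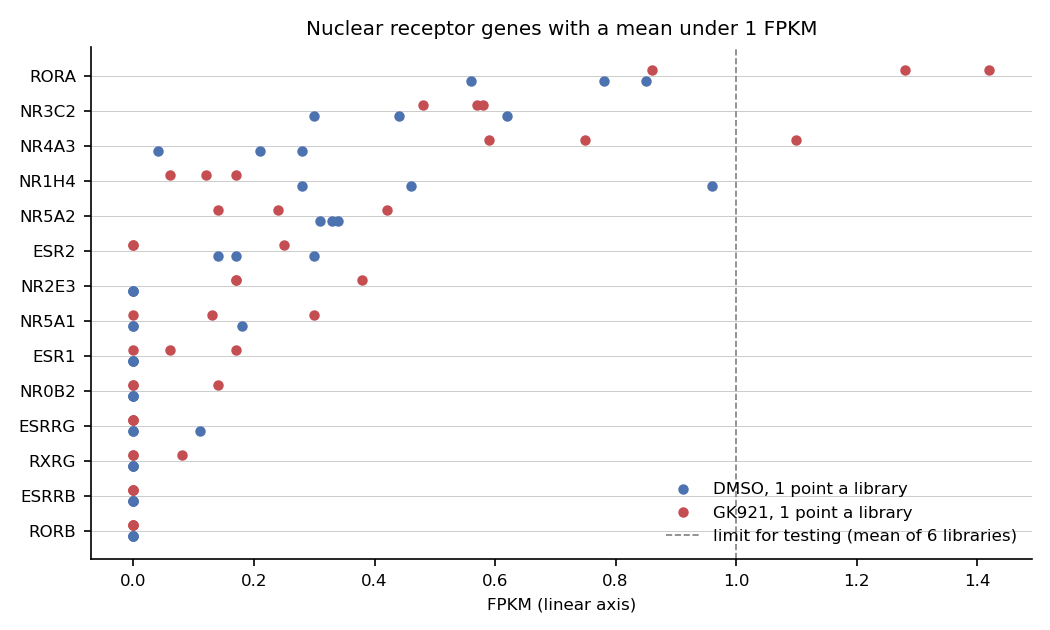
FPKM (linear axis) of the 14 members with a mean under 1 FPKM, 1 point a library, blue for DMSO and red for GK921, with the limit for testing as a dashed line. NR4A3 and NR1H4 have separate groups in opposite directions, and most others sit at or near 0 in both groups.

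Coregulators link bound receptors to chromatin. Of 11 coactivator genes, 10 were tested, 7 rose and 2 fell (median log2 change 0.33). With DMSO library 1 or 2, or GK921 library 2 or 3, left out, 1 fell, and under each rescaling 5 rose and 2 fell. For this and each later list the share over all tested genes, without rescaling, is the same, 46.8% higher and 29.2% lower. Under the rescalings that background moved too. Of 11573 genes, 4221 were higher and 4374 lower with median ratios, 4627 and 3985 with upper quartiles, and 4396 and 4069 with quantile normalization. NCOA1, NCOA2 and NCOA3, the p160 coactivators that bind ligand-occupied receptors, rose 2.38-fold to 10.3 ± 1.61 FPKM, 1.85-fold to 25.1 ± 1.19 and 1.53-fold to 78.6 ± 3.47 (limma adjusted p = 3.34e-05, 4.05e-06 and 2.53e-06). CARM1, a histone arginine methyltransferase, fell 1.37-fold and PPRC1, a PGC-1 relative, 1.13-fold. PPARGC1A, the PGC-1 alpha coactivator of energy metabolism, was listed at 0 in every library. Of 9 corepressor genes, 6 rose and 2 fell (median 0.31). TBL1X and TBL1XR1, paralogous subunits of the NCOR complex, differed in direction. TBL1X rose 2.03-fold to 11.2 ± 0.663 FPKM and TBL1XR1 fell 1.33-fold to 31.8 ± 1.54. SIN3A and LCOR rose 1.41-fold and 1.44-fold, and the deacetylase gene HDAC3 fell 1.19-fold. Of 8 chaperone genes that hold steroid receptors ready for hormone, 7 fell and 1 rose (median -0.23). HSPA8 fell 1.65-fold, STIP1 1.38-fold and HSP90AB1 1.33-fold, and CDC37 rose 1.12-fold. The call of CDC37 was lost with median ratios (limma adjusted p = 0.75) and upper quartiles (0.335), which left 7 lower and 0 higher. With quantile normalization CDC37 was called higher (limma adjusted p = 0.0143), and the list had 5 lower and 1 higher.

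Enzymes that make or remove ligands set what reaches a receptor. The 16 listed retinoid genes were not all such enzymes, and include binding proteins and the response genes RARRES2 and TGM2. Of these 16 genes, 10 were tested, 6 fell and 0 rose (median -0.49). Median ratios and quantile normalization called 9 lower. At an unadjusted p under 0.05 the count of rises was also 0. ALDH1A1, a retinaldehyde dehydrogenase that makes retinoic acid, read 1228, 1208 and 1218 FPKM in DMSO and 162, 155 and 159 after GK921. It fell 7.68-fold (log2 change -2.93 ± 0.03, limma adjusted p = 1.88e-11), while ALDH1A2 was listed at 0 in every library and ALDH1A3 at a mean of 0.0167 FPKM in each group. RARRES2, the chemerin gene induced by retinoids, fell 7.55-fold to 0.683 FPKM, so that it passed the limit for testing only through its DMSO libraries. DHRS3, a retinaldehyde reductase and retinoic acid target, fell 1.69-fold. CYP26A1, the inducible enzyme that degrades retinoic acid, was near 0 in both groups. TGM2, the target of the inhibitor and a textbook retinoic acid response gene, was not called, at 42.1 ± 0.0265 and 42.6 ± 0.345 FPKM (log2 change 0.02, 95% interval -0.07 to 0.11, limma adjusted p = 0.71). Of 14 genes of steroid, thyroid hormone and vitamin D handling, 9 were tested, 4 rose and 5 fell (median -0.65). With median ratios and quantile normalization 2 rose and 5 fell. The median depended on low genes, since with a limit of 5 FPKM 4 rose and 2 fell (median 0.33), and with no expression limit it was -0.08. Of the 5 that fell, HSD11B2 (1.74 ± 0.636 FPKM in DMSO, 0.467 ± 0.186 after GK921) passed the limit only through DMSO. Among vitamin D enzymes, the 25-hydroxylase gene CYP2R1 rose 3.45-fold to 40.7 ± 2.19 FPKM. CYP24A1, which degrades vitamin D and is itself a VDR target, fell 10.7-fold from 7.31, 7.04 and 8.09 to 0.82, 0.54 and 0.73 FPKM. It too passed the limit only through DMSO, so its call (limma adjusted p = 2.04e-07) was favoured by the choice. The activating hydroxylase gene CYP27B1 rose 1.43-fold to 6.50 ± 1.26 FPKM, a call kept in 1 of the 3 rescalings. CYP27A1, the sterol 27-hydroxylase that makes an LXR ligand, fell 4.28-fold to 9.47 ± 0.617 FPKM. HSD17B1, which activates estrogen, rose 1.81-fold, and HSD17B2, which inactivates it, fell 6.24-fold.

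**Figure D5:**
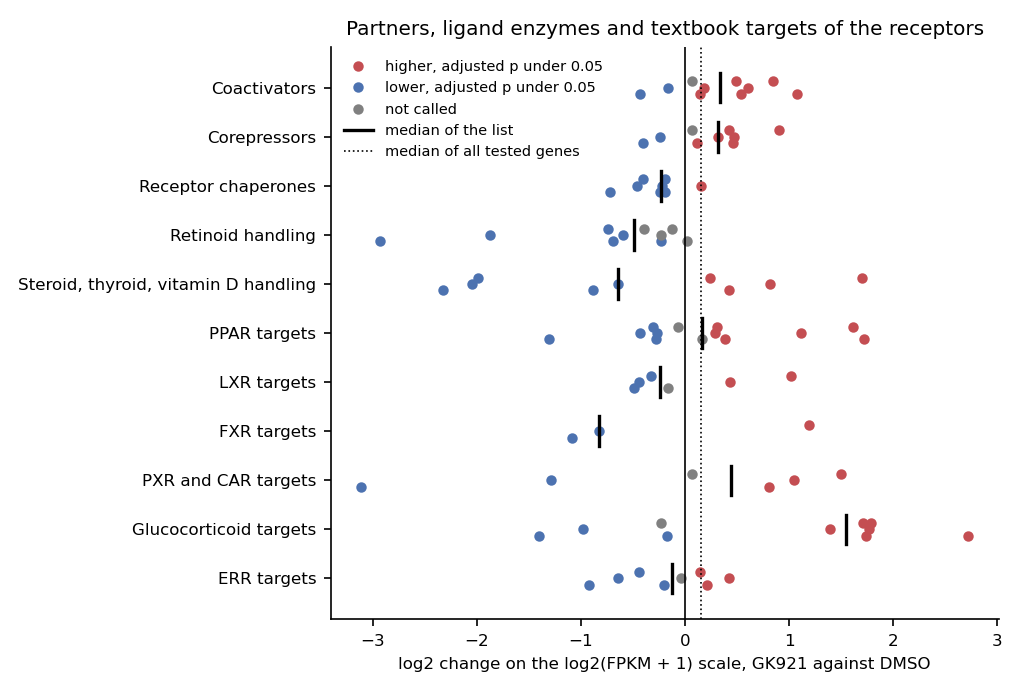
Log2 change on the log2(FPKM + 1) scale (GK921 against DMSO) of each tested gene on 11 lists of receptor partners, ligand handling and targets. There is 1 point a gene, red when called higher, blue when called lower and grey when not called. Thick ticks are list medians, from -0.823 for 3 FXR targets to 1.55 for 10 glucocorticoid targets, and the dotted line is the median of all tested genes.

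Textbook target genes of a given receptor moved in both directions on each list. Of 17 PPAR targets, 13 were tested, 6 rose and 5 fell (median 0.17, beside 0.158 for all tested genes). With median ratios and quantile normalization 4 rose and 6 fell, with medians of 0.0087 and -0.02. The lipid droplet coat gene PLIN2 rose 2.18-fold to 310.4 ± 6.27 FPKM, the glucose oxidation brake PDK4 4.25-fold and the lipase inhibitor gene ANGPTL4 4.15-fold. CREB3L3, HADHA and CPT1A, of hepatic lipid use, fell 3.22-fold, 1.36-fold and 1.24-fold. Of 10 LXR targets, 6 were tested, 2 rose and 3 fell. The cholesterol exporter gene ABCA1 rose 1.39-fold and SMPDL3A 2.14-fold, whereas the lipogenic genes SREBF1 and SCD fell 1.38-fold and 1.25-fold and the lysophospholipid acyltransferase gene LPCAT3 1.42-fold. Only 3 of 10 FXR targets were tested, of which SLC51B, a bile acid exporter subunit, fell 2.33-fold, SDC1 fell 1.78-fold and ABCB4 rose 2.69-fold. Of 10 PXR and CAR targets, 6 were tested, 3 rose and 2 fell. UGT1A1, the bilirubin glucuronidation gene that shares exons with its neighbours, fell 15.1-fold from 17.9 ± 0.347 to 1.19 ± 0.146 FPKM, and the exporter gene ABCC2 fell 2.46-fold. CYP3A5 rose 2.12-fold to 48.6 ± 1.58 FPKM and the drug exporter gene ABCB1 1.80-fold. Of 13 glucocorticoid targets, 10 were tested, 6 rose and 3 fell, with the highest median of the lists at 1.55. Lower calls numbered 2 with no trend, with no expression limit, without DMSO library 1, 2 or 3, and without GK921 library 3. With quantile normalization they numbered 4. DUSP1, TSC22D3 (GILZ) and MT2A, of a family of similar genes, rose 7.17-fold, 3.67-fold and 3.46-fold. FKBP5, a widely used glucocorticoid response gene, read 34.5, 32.0 and 28.6 FPKM in DMSO and 14.0, 16.0 and 16.6 after GK921. It fell 2.04-fold (log2 change -0.98 ± 0.09, limma adjusted p = 7.02e-06), and GLUL fell 1.12-fold (limma adjusted p = 0.03545). Of 8 ERR targets, 3 rose and 4 fell (median -0.12), and 1 rose and 5 fell with median ratios and upper quartiles. ATP5F1B, UQCRC2 and SDHB, of the respiratory chain, fell 1.90-fold, 1.57-fold and 1.36-fold. COX5B rose 1.34-fold, while the call of IDH3A as higher (1.16-fold) was kept in 1 of the 3 rescalings.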

How the data were processed

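RNA sequencing of 6 libraries was read from the authors' deposited table of FPKM per gene symbol, with 2 decimals. Tools named in the submitters' processing notes, without roles, are HISAT2, featureCounts, edgeR and FastQC 0.11.5, with build hg38. Not given in the sources used here: annotation, strand setting and read totals. Counting error could therefore not be set. FPKM is relative within a library, so a change in total RNA per cell is not visible. Column totals, 821498 to 836182, cannot tell FPKM from TPM. Groups came from the sample titles.

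Values were fitted with limma 3.58.1 (R 4.3.3) on log2(FPKM + 1), which understates changes of low genes, restricted to genes that averaged 1 FPKM or more across all 6 libraries. Treatment was the only term, moderation used an intensity trend, and p-values were adjusted by Benjamini-Hochberg over all 11573 tested genes. Printed folds are ratios of mean FPKM. The fit was tested on simulated data. Every tested member is named, and untested ones where a group mean reached 0.2 FPKM. From each list, up to 3 called genes a direction with at least 5 FPKM in the higher group are named, except 1 not reported here, and genes outside this rule (RXRG, ESR1, ESRRB, ESRRG, NR0B2, NR5A1, RORB, CYP26A1, TGM2, ALDH1A2, ALDH1A3, PPARGC1A) were chosen after their values were seen. Members, although listed by symbol, and lists were chosen with earlier results of these data known. Relative depth came from steps between low FPKM values in 15 pairs of libraries. Positions are from GENCODE 29 (GRCh38) and sequences from RefSeq (GRCh38.p14). Alternatives were 2 pseudocounts, 2 expression limits, 3 rescalings, a replicate block, no trend, a test against a 1.2-fold change (treat) and each library left out.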

Additional observations from a re-analysis of the deposited data

How the results depend on the processing

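The 27 tested members were refitted under 16 alternatives. The number of called members ranged from 20 to 22 without 1 library, against 21 with all 6, and the number of called genes from 8361 to 8498, against 8789. In a test against a 1.2-fold change, 5730 genes were called instead of 8789, and 14 members. Under that test 4 of 8 called corepressors, 3 of 8 chaperones, 6 of 11 PPAR targets, 3 of 5 LXR targets and 4 of 7 ERR targets passed. The other lists kept more, with 6 of 9 called coactivators, 5 of 6 retinoid genes and 7 of 9 steroid, thyroid hormone and vitamin D genes. Among the remaining targets, 3 of 3 for FXR, 5 of 5 for PXR and CAR and 8 of 9 for glucocorticoids passed. Of 424 refits of a member, 382 kept the direction and the side of the threshold, and 13 called members kept both in every alternative that could test them. The sign of PPARG turned with median ratios (-0.121) and upper quartiles (-0.058), and that of RXRA with median ratios (-0.001). NR2C1 turned under all 3 rescalings (-0.075, -0.012 and -0.012), and NR1I3 with quantile normalization (-0.109) and without the second GK921 library (-0.005), its values without 1 library running from -0.005 to 0.275. The median change of all tested genes, 0.158, became -0.0013 with median ratios, 0.0558 with upper quartiles and 0.0272 with quantile normalization. The replicate block rests on replicate numbers, and the labels do not say whether these pair the libraries. Same-numbered libraries deviated together at correlations of 0.0305, 0.0473 and -0.00207, and the other pairs at -0.0573 to 0.0291. With so few libraries, these values cannot decide whether the numbers pair them. With the replicate block 8706 genes and 21 members were called, VDR not (limma adjusted p = 0.0694) and NR2F2 lower (0.0301). Unknown read totals limit what can be said of members near 0.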
